A study of Bos taurus with 18 samples.

Results

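Macrophages and other leukocytes share a set of genes that mesenchymal cells use little or not at all. The set covers surface receptors that take up debris and sense microbes, small adaptor proteins that pass signals inward, chemokines, the chains of complement C1q, and the transcription factor SPI1 (PU.1), which directs myeloid differentiation. Bone marrow holds these cells beside the mesenchymal stem cells (MSCs), and macrophages can adhere to culture plastic as MSCs do. A list of 36 such genes was followed here through the libraries of a bovine study, out of 16989 genes counted. All 36 symbols were found in the files. The genes were chosen by their read counts in these libraries, most of them for standing high in 1 library, the heterogeneous population, so the difference of these genes between that library and the clones is given as a description, with no p-value.

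The study sequenced poly-adenylated RNA of bone marrow-derived MSCs of 1 juvenile bovine donor, kept as a monolayer in a basal medium of DMEM, serum and antibiotics, with no induction to cartilage. There were 17 clones, lettered A to Q and each grown from 1 cell, and 1 heterogeneous population of many cells from the same donor. No treatment or genetic change separates the groups. The sources used here do not say whether the clones and the heterogeneous population were cultured or sequenced together, so a batch and the groups cannot be told apart. Each library was sequenced once, with 11484812 to 18458157 reads on genes in a clone (median 14193790) and 16092501 in the heterogeneous population, so depth did not set that library apart. A count of 3 reads, taken as the upper limit that a count of 0 allows, corresponded to 0.163 to 0.261 CPM (reads on a gene scaled to the library's total of reads on genes). Values of a clone have no replicate error, and intervals on single libraries cover counting error only. The 12 mesenchymal marker genes (among them THY1, NT5E, PDGFRB and COL1A1) had at least 870 reads in every library. In the heterogeneous population COL1A1 was above every clone (107492 CPM against at most 92685.6). NT5E (220 CPM against at least 270) and ALCAM (64.4 against at least 65.8) were below every clone, and the other genes lay within the range of the clones. Whether the groups are alike in these genes was not tested.

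The level in the clones split the list into 3 classes. In 23 genes the clones stayed below 1 CPM throughout, and these are called near zero. In 4 genes (CTSS, LAPTM5, TLR4 and TLR2) every clone reached 1 CPM, and these are called shared. The other 9 genes (CD68, LCP1, CSF1R, MRC1, FCER1G, HCLS1, CORO1A, RAC2 and NCF4) lay above 1 CPM in some clones only and are called mixed. The classes depend on the limit. At 0.5 CPM, 15 genes were near zero and 16 mixed, with CD163, MSR1, CD14, PTPRC and ITGB2 among those that moved. At 2 CPM only CTSS and TLR4 were shared, and FCER1G, CSF1R, CORO1A and RAC2 became near zero. Over all 16989 genes the limit of 1 CPM gave 32.4% near zero, 10% mixed and 57.5% shared. The gene just inside the near-zero limit was CD163, at 0.871 CPM in clone K, and the mixed gene closest to it was RAC2, at 1.27 CPM in clone C. CD68 missed the shared class by its lowest value, 0.921 CPM in clone M, and was shared when TMM effective library sizes replaced library totals.

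**Figure D1:**
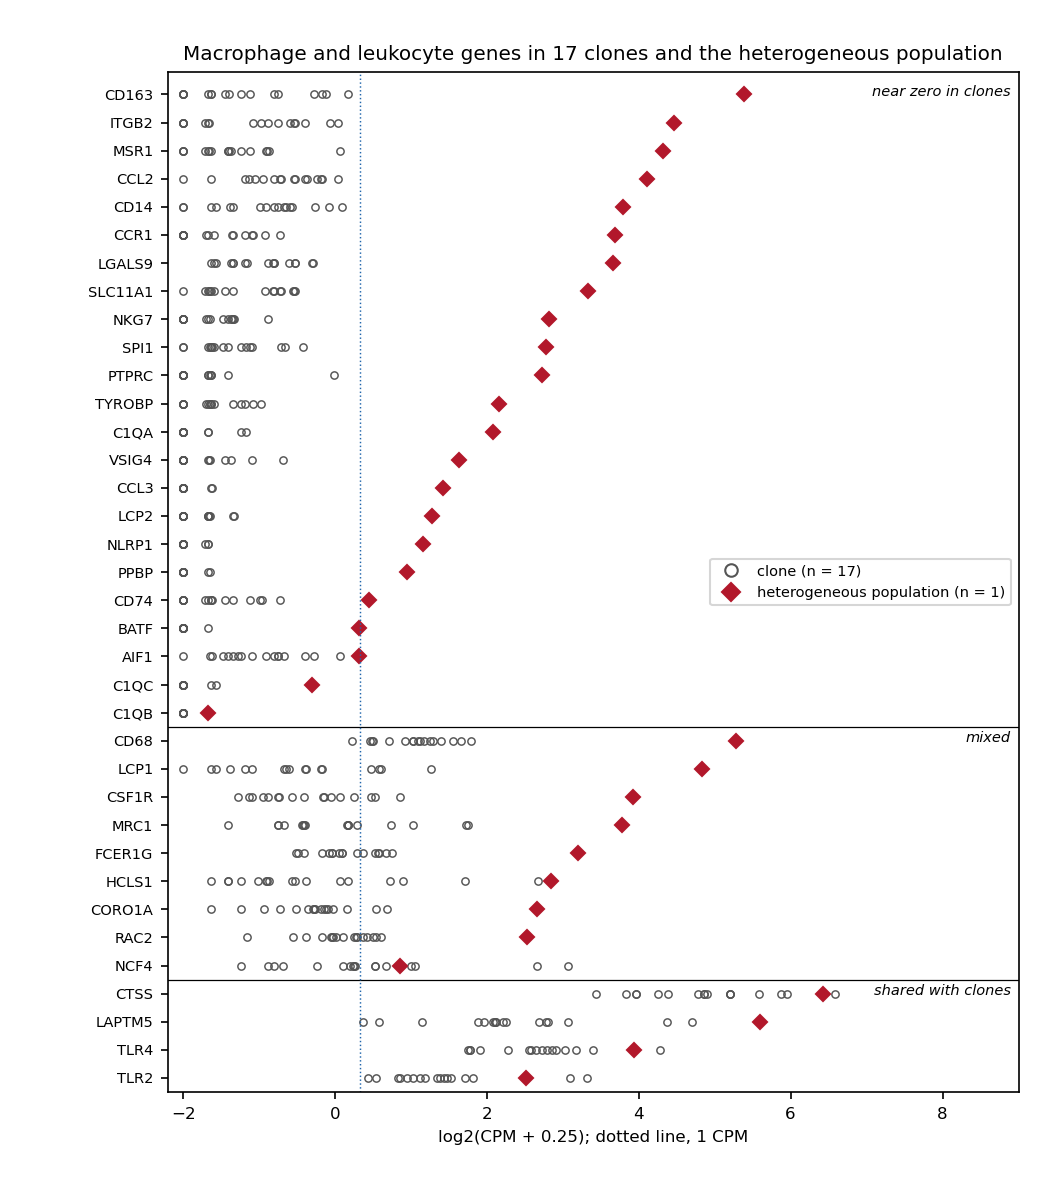
Level of each of the 36 genes on the log2(CPM + 0.25) scale (x axis), by class and by level in the heterogeneous population, with 17 open circles for the clones and a diamond for the heterogeneous population; the dotted line marks 1 CPM. The diamond lies to the right of all circles in 32 genes, and in NCF4, CTSS, TLR4 and TLR2 it lies among them.

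In the heterogeneous population 32 of the 36 genes were above every clone in CPM, whereas this held for 7.04% of the 14441 genes with a read and for 6.62% of the 11878 genes tested below. None of the 36 was below every clone, as 9.07% of the genes with a read were. The 4 exceptions were TLR2, TLR4, CTSS and NCF4. Among the 32, C1QB had 1 read against 0 in the clones. For C1QC, HCLS1 and AIF1 the counting interval of the fold over the highest clone began below 1, at 0.890, 0.844 and 0.543. Of the 34 genes with enough reads for edgeR's quasi-likelihood test, 26 were called higher and 0 lower, beside 1.21% of all 11878 genes tested that were called higher and 0.00842% called lower. DESeq2 called 17 of the 26. Both counts describe the values by which the list was chosen, and many of these genes entered the test only through their reads in this library, so nothing is read from them. A lower level in bulk RNA can come from fewer cells of a type or from less RNA per cell, which cannot be told apart here.

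Some scavenger receptors are used as macrophage markers. CD163, the receptor for haemoglobin-haptoglobin complexes, had 667 reads in the heterogeneous population (41.4 CPM, 95% counting interval 38.4 to 44.7). The clones had 0 to 12 reads of it, with a median of 2. All 17 clones together held 60 reads of CD163, so that the heterogeneous population was 172-fold above the pooled clones (counting interval 132 to 228), and it was 47.6-fold above clone K, the highest clone. MSR1, a scavenger receptor for modified lipoproteins, had 317 reads against 0 to 11 in the clones (median 2), and again clone K was highest. VSIG4, a complement receptor of tissue macrophages, had 46 reads against 0 to 5, with 10 clones at 0. For these 3 genes the heterogeneous population was above every clone, as it was for 7.04% of all genes with a read. Most of the list was chosen for this, so nothing is read from it.

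CD14, the co-receptor that hands lipopolysaccharide to TLR4, had 218 reads against 0 to 11 in the clones (median 4), a fold of 43.3 over the pooled clones (counting interval 33.3 to 56.8). TLR4 itself behaved differently. This receptor for lipopolysaccharide had 243 reads (15.1 CPM) in the heterogeneous population and 39 to 263 in the clones, where clone N, at 19.1 CPM, was above it and clone Q was next. TLR2, which senses bacterial lipopeptides, had 88 reads (5.47 CPM) in the heterogeneous population and 17 to 153 in the clones (median 31), and clones O and C were above it. The lipopolysaccharide receptor was thus counted in every clone, and its macrophage co-receptor stayed below 1 CPM in all of them.

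CD68, a lysosomal glycoprotein widely used to stain macrophages, was counted in every clone at 16 to 44 reads (median 27) and reached 619 reads in the heterogeneous population, 20.6-fold above the pooled clones (counting interval 18.3 to 23.3). MRC1, the mannose receptor, had 216 reads against 2 to 48 (median 10). The clones had clear counts of both genes. The heterogeneous population was above every clone in both, as in 7.04% of all genes with a read, and most of the list was chosen for this.

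The adaptors of myeloid receptors were followed next. TYROBP (DAP12) is the membrane adaptor of receptors such as TREM2, and it had 68 reads against 0 to 4 in the clones (median 1). FCER1G, the adaptor shared by activating Fc receptors, had 144 reads against 7 to 20 (median 11), 10.1-fold above the pooled clones (counting interval 8.16 to 12.6). These adaptors serve similar receptors, yet at the limit of 1 CPM TYROBP was near zero in the clones and FCER1G was mixed. At 2 CPM FCER1G was near zero as well, although every clone had reads of it. PTPRC (CD45), the phosphatase carried by nearly all leukocytes, had 102 reads in the heterogeneous population. It was at 0 in 10 clones and at 1 or 2 reads in the others, except for 10 reads in clone G. LCP2 (SLP-76), a scaffold of immune receptor signalling, had 35 reads against 0 to 2, with 10 clones at 0.

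LAPTM5, a lysosomal membrane protein of haematopoietic cells, had 777 reads in the heterogeneous population (48.3 CPM) and 12 to 316 in the clones (median 63). Clone A held 25.7 CPM and clone L 20.4 CPM, and the other clones at most 8.13 CPM. HCLS1, a cortactin relative that binds actin in blood cells, had 111 reads against 1 to 84 (median 6). Its lead over clone N was 1.13-fold with a counting interval of 0.844 to 1.52, so these 2 libraries did not differ beyond counting error.

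CSF1R binds M-CSF, the main survival factor of macrophages, and had 241 reads against 2 to 22 in the clones (median 8), 24.6-fold above the pooled clones and 9.62-fold above clone C, the highest clone. CCR1, a receptor for CCL3, had 203 reads against 0 to 5 (median 1). CCL3, its ligand, had 39 reads, and the clones had 0 reads except for 1 read in each of clones G and K. Receptor and ligand were therefore both near zero in the clones.

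CCL2, the chemokine that recruits monocytes, is made by stromal cells as well as macrophages. It had 273 reads in the heterogeneous population and 0 to 12 in the clones (median 5), at most 0.775 CPM in a clone. LGALS9 (galectin 9) had 199 reads against 1 to 8 (median 4) and was the only one of the 23 near-zero genes with a read in every clone. PPBP, a chemokine stored in platelets and also made by monocytes, had 27 reads, with 1 read in each of clones O and Q and 0 in the other 15. The ratio of PPBP to the pooled clones, 209, had a counting interval of 52.5 to 1814.

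The chains of C1q, the recognition part of the classical complement pathway, differed in how far they could be measured. C1QA had 64 reads in the heterogeneous population against 0 to 3 in the clones, with 13 clones at 0. C1QC had 9 reads, and clones D and K had 1 each. C1QB had 1 read in the heterogeneous population and 0 in all clones, so its level could not be measured here. The reason for this was not tested. The chains are joined in 1 protein, but their counts were not set against each other, since transcript lengths were not used here.

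SPI1 had 106 reads against 0 to 7 in the clones (median 2), 41.0-fold above the pooled clones (counting interval 28.3 to 60.6). BATF, an AP-1 family factor of lymphoid and myeloid cells, had 16 reads, and 1 read in 1 clone only, clone O. Both factors were near zero in the clones.

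Among genes of adhesion and the cytoskeleton, ITGB2, the beta chain shared by the leukocyte integrins, had 350 reads against 0 to 11 in the clones (median 4). LCP1 (L-plastin), an actin-bundling protein, had 455 reads against 0 to 29 (median 7), with clone G highest. The blood-cell GTPase RAC2 (89 reads against 3 to 19) and the actin regulator CORO1A (98 reads against 1 to 19) were also above every clone, at 6.69-fold and 9.99-fold over the pooled clones. The smallest fold over the pooled clones among these 5 genes was that of AIF1 (IBA1), 3.64, a calcium-binding protein used as a macrophage and microglia marker. It had 16 reads in the heterogeneous population and 11 in clone N, a ratio of 1.24 with a counting interval of 0.543 to 2.97, so it did not set this library apart from clone N beyond counting error.

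CTSS (cathepsin S), a lysosomal protease that cuts the invariant chain, had 1380 reads in the heterogeneous population and at least 195 in every clone. It ranged from 10.6 CPM in clone M to 95.3 CPM in clone N (median 28.9), and the heterogeneous population, at 85.8 CPM, lay between clones N and F. With TMM effective library sizes the heterogeneous population was above clone N, so the order of these 2 libraries depends on the scaling. CD74, the invariant chain itself, had 18 reads against 0 to 5. SLC11A1 (NRAMP1), the metal transporter of the phagosome, had 158 reads against 0 to 7 (median 2). NCF4, a cytosolic subunit of the phagocyte NADPH oxidase, was the 1 gene of the list with a fold below 1 over the pooled clones (0.903, counting interval 0.578 to 1.35), with 25 reads against 2 to 141.

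NKG7, a granule protein of cytotoxic lymphocytes, had 109 reads against 0 to 4 in the clones (median 1). NLRP1, an inflammasome sensor, had 32 reads, and 3 clones had 1 read each. Of the 8 other cytotoxic lymphocyte genes in the files, 7 (GZMA, GZMB, NCR1, KLRD1, KLRK1, FASLG and IFNG) had 0 reads in every library, and perforin (PRF1) had 0 in the heterogeneous population and at most 2 in a clone. A 0 in every library does not show that a gene is silent, since the glycolytic gene PGK1 also had 0 reads. Which cells the NKG7 reads came from was not tested.

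Summed over the 23 near-zero genes, the heterogeneous population held 3073 reads (191 CPM) and the clones 14 to 75 reads (median 40), or 0.930 to 5.58 CPM. The clones thus carried 0.487% to 2.92% of the summed level of the heterogeneous population. The 4 highest clones were G, K, C and O at 5.58, 5.15, 5.02 and 4.77 CPM, and the lowest was F. Between 4 (clone O) and 16 (clone L) of the 23 genes had 0 reads in a clone. Gene by gene, the pooled clones were under 5% of the heterogeneous population in 21 of the 23 genes, with CD74 at 8.61% and AIF1 at 27.4%. The highest clone differed between genes. In CPM it was clone G for 6 of the near-zero genes, among them PTPRC (10 reads), VSIG4 (5) and CD14 (11), and clone C for 5, namely CCR1, LGALS9, SPI1, ITGB2 and CD74. It was clone K for 3 (CD163, MSR1 and NKG7) and clone E for 3 (TYROBP, CCL2 and C1QA). In an edgeR test of each clone against the other 16 without a filter, chosen so that these sparse genes could enter, PTPRC in clone G had the smallest p of any member (log2 fold 4.22, standard error 0.85, adjusted p = 0.591 over all genes), which did not pass 0.05.

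**Figure D2:**
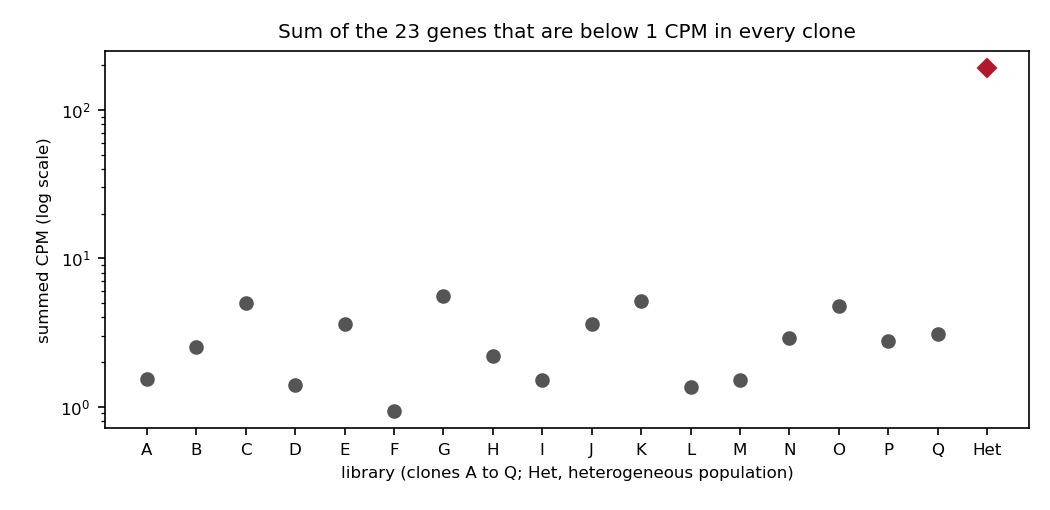
Summed CPM of the 23 near-zero genes (y axis, log scale) in each library (x axis), with circles for the 17 clones and a diamond for the heterogeneous population. The clones lie between 0.930 and 5.58 CPM and the heterogeneous population at 191 CPM.

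Most of the list was chosen for its level in the heterogeneous population, which was left out of the tests among the clones. Whether values of the clones played a part in the choice of the other genes is not known. Each clone was set against the other 16 by edgeR's quasi-likelihood test on 10351 genes, with a filter that did not know which clone was tested. It kept 5 of the 36 genes (CD68, CTSS, LAPTM5, TLR2 and TLR4). None of these passed an adjusted p of 0.05 in any clone, 0 of 85 tests, whereas 5 of 85 had an unadjusted p under 0.05. DESeq2 also called 0, with 8 unadjusted p under 0.05. Over all genes the share called was 0.783% for clone N and 0.0193% for clone M, and it was 0% for the 15 remaining clones. Leaving out the filter admitted 35 of the 36 genes and again gave 0 calls, with 21 of 595 tests at an unadjusted p under 0.05.

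The spread between clones was also set against counting error. Counts of 14 genes averaged at least 5 reads per clone, and a chi-square test against Poisson counts in proportion to the effective library sizes passed an adjusted p of 0.05 in 12 of them. Since 97.5% of 11480 genes passed, this count says nothing particular about the 12. The 2 that did not pass were RAC2 (chi-square per degree of freedom 1.26, adjusted p = 0.217) and FCER1G (1.30, adjusted p = 0.191). These 2 were among the 9 mixed genes, and their counts stayed at 3 to 19 and 7 to 20 reads over 17 clones. The coefficient of variation left after counting error was 14.6% for RAC2 and 15.2% for FCER1G, against a median of 21.4% over all genes with enough reads. These 2 genes averaged only 12.1 and 12.9 reads per clone, where counting error is large. They are therefore not shown to be more even than other genes. The same coefficient was 25.4% for CD68 and from 34.9% (CORO1A) to 139% (HCLS1) for the others.

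The genes that varied most did so in different clones. HCLS1 had a median of 0.425 CPM over the clones and was highest in clone N (6.10 CPM), clone Q (3.03) and clone P (1.62). NCF4 had a median of 0.944 CPM and stood at 8.14 CPM in clone P and 6.07 CPM in clone Q, with the next clone, J, at 1.83. LAPTM5 was highest in clones A and L (25.7 and 20.4 CPM). Clones P and Q thus shared high NCF4, and clones A and L high LAPTM5.

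A further pair of clones, C and O, held the 2 highest values of both TLR2 (8.28 and 9.73 CPM) and MRC1 (3.11 and 3.05 CPM). The third clone was at 3.27 CPM for TLR2 (clone G) and at 1.79 CPM for MRC1 (clone F). In the edgeR test against the other clones TLR2 had a log2 fold of 1.88 in clone O (standard error 0.58, adjusted p = 0.540) and 1.62 in clone C (standard error 0.65, adjusted p = 0.724). These differences from the other clones therefore did not pass the threshold once the spread between clones was taken into account.

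Clone N was the highest clone for CTSS, TLR4, HCLS1 and AIF1 and the lowest for CORO1A (0.0726 CPM, 1 read). Its log2 fold over the other clones was 1.42 for TLR4 (standard error 0.53, adjusted p = 0.187) and 1.49 for CTSS (standard error 0.63, adjusted p = 0.242) by edgeR, and neither passed. Without clone N, the heterogeneous population was above every other clone in TLR4 and CTSS as well, which made 34 of 36 genes.

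**Figure D3:**
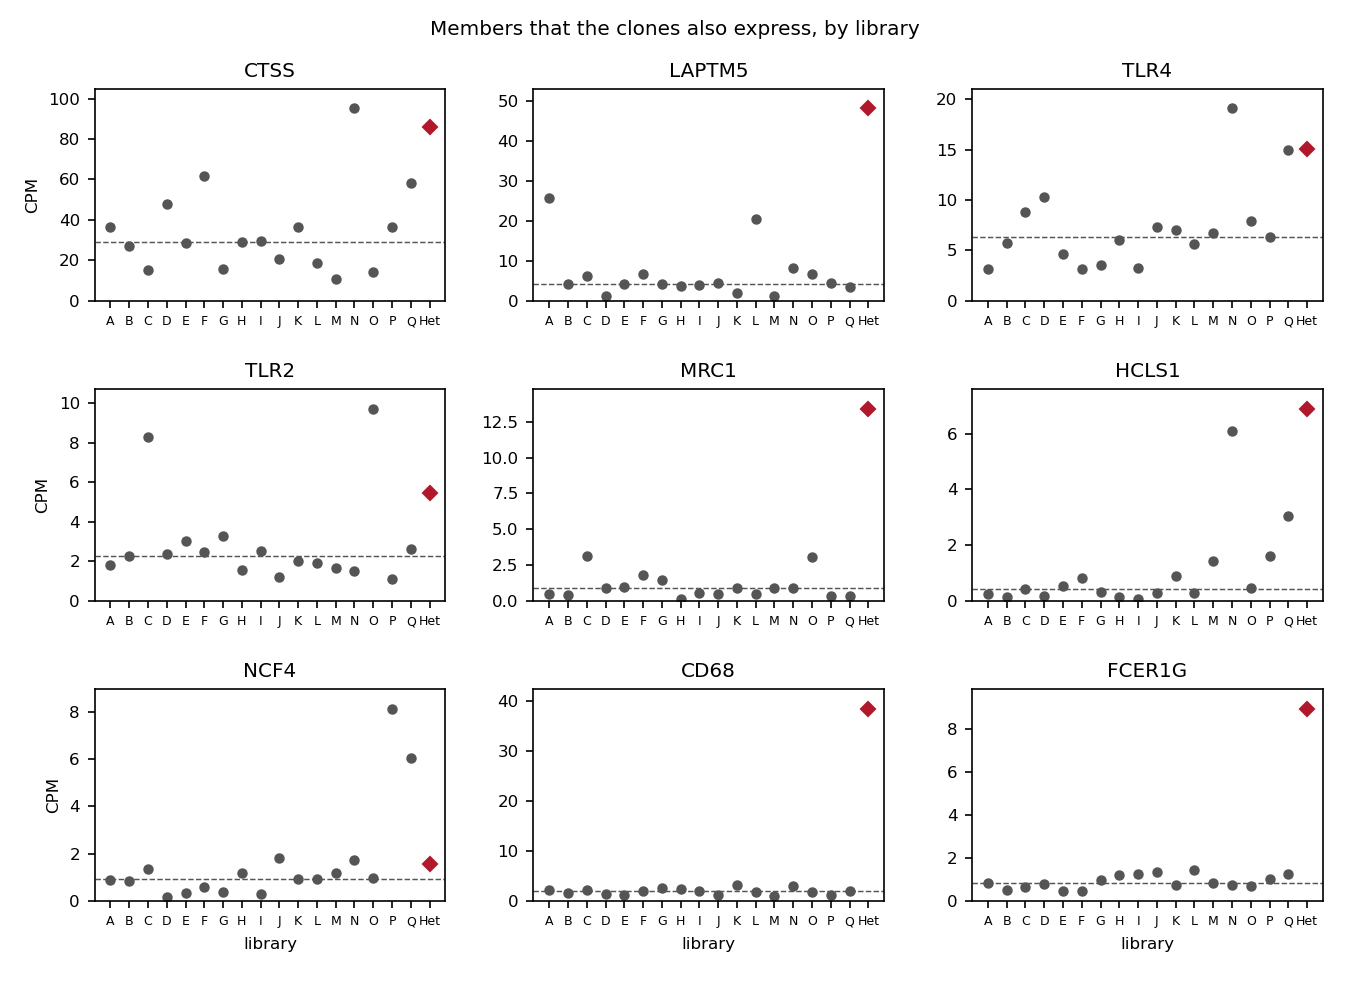
CPM (y axis, linear, from 0) of 9 genes that clones also express, by library (x axis, clones A to Q as circles and Het, the heterogeneous population, as a diamond), with the clone median as a dashed line. CTSS, TLR4 and HCLS1 peak in clone N, LAPTM5 in clones A and L, TLR2 and MRC1 in clones C and O, and NCF4 in clones P and Q, whereas CD68 and FCER1G stay at most at 3.19 and 1.43 CPM in a clone and reach 38.5 and 8.95 CPM in the heterogeneous population.

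Marker genes outside the list were then compared between the heterogeneous population and the 17 clones by edgeR's quasi-likelihood test, which assumes that this single library varies as the clones do. A gene could enter this test through its reads in 1 library of either group. A filter blind to the groups kept 0 of the listed genes that the test called, so these calls are given as a description, with no p-value. Of 26 further macrophage genes in the files, 21 had a read and 12 were tested, of which the blind filter kept 2. In the test 6 were called higher and 0 lower, beside 1.21% called higher over all genes, and 13 of 26 were above every clone. IRF8, a partner of SPI1 in myeloid transcription, had 31 reads, and no clone had more than 1. TREM2, a lipid-sensing receptor that signals through TYROBP, had 89 reads against at most 5. The others were the tetraspanin CD53, the pore-forming protein MPEG1, the costimulatory ligand CD86 and the complement receptor C3AR1, with 31 to 153 reads against at most 12 in any clone. DESeq2 called 2 of the 6, CD53 and TREM2. CYBB, ITGAM, MARCO, CCR2 and C5AR1 had 0 reads in every library, as did PGK1, a glycolytic gene used by all cells, so a 0 in these files does not show that a gene is silent.

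Of 26 pan-leukocyte genes, 21 were tested, of which the blind filter kept 6, and edgeR called 15 higher and 0 lower. The 15 included the signalling proteins VAV1, BTK and INPP5D, the migration factor DOCK2, the integrin partner FERMT3, the platelet and leukocyte protein PLEK, and NCF1, which joins NCF4 in the phagocyte oxidase. VAV1 had 48 reads against at most 2. NCF1 had at most 3 reads in a clone, where NCF4 reached 141, and 48 reads in the heterogeneous population. DESeq2 called 6 of the 15, among them NCF1 and FERMT3. WAS was at 0 reads in every library.

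Lymphocyte, mast cell, erythroid, progenitor and endothelial genes gave 0 calls. Of 35 T cell, B cell, cytotoxic and mast cell genes in the files, 21 had a read and 4 were tested, with 0 called and 0 at an unadjusted p under 0.05 by edgeR, 0 called by DESeq2, and 0 above every clone. The T cell genes CD2, CD4 and CD8A had 0 reads in the heterogeneous population, and CD3E had 4 against at most 5 in a clone. Genes at 0 in every library included CD79B, CD22, BLK and CR2 among B cell genes, CPA3 and MS4A2 among mast cell genes, HBA and HBB among erythroid genes, and CDH5, CLDN5, ESAM and ROBO4 among endothelial genes. In the erythroid, progenitor and endothelial lists 0 genes were called of 1, 4 and 4 tested by edgeR. The endothelial and platelet gene VWF was nearest to the threshold, with 170 reads against 9 to 93 (log2 fold 1.94, standard error 0.48, adjusted p = 0.0569). Many genes of these lists had too few reads to be tested, or 0 in every library as PGK1 had. A difference in them could not be detected here, and the reason for the zeros was not tested.

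Among neutrophil genes S100A12, a calcium-binding protein of granulocytes and monocytes, had 42 reads against at most 3 and was called by edgeR but not by DESeq2. S100A8 (2 reads against 0) and S100A9 (3 against at most 1) were also above every clone, but with no more than the 3 reads that a count of 0 allows. MPO and CSF3R had 0 reads in the heterogeneous population and ELANE 0 in every library. PF4, a neighbour in function of PPBP in platelets, had 82 reads against at most 6 and was called by both tools. The platelet genes TREML1 (8 reads against at most 1) and TUBB1 (9 against 1 to 4) were also above every clone. The platelet receptor gene GP9 had 299 reads against 209 to 438 in the clones, and GP6 had 0 in every library. What part the cells behind S100A12 and PF4 have in the values of the 36 genes was not tested.

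MHC class II genes could hardly be followed. BOLA-DRA, BOLA-DRB3, BOLA-DQA1 and BOLA-DOA had 0 reads in every library, and the class II regulator CIITA had 0 in the heterogeneous population and at most 3 in a clone. BOLA-DMB, which loads peptides onto class II molecules, had 141 reads against 3 to 95 in the clones and was not called. The invariant chain CD74, which accompanies these molecules, had the 18 reads given above.

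**Figure D4:**
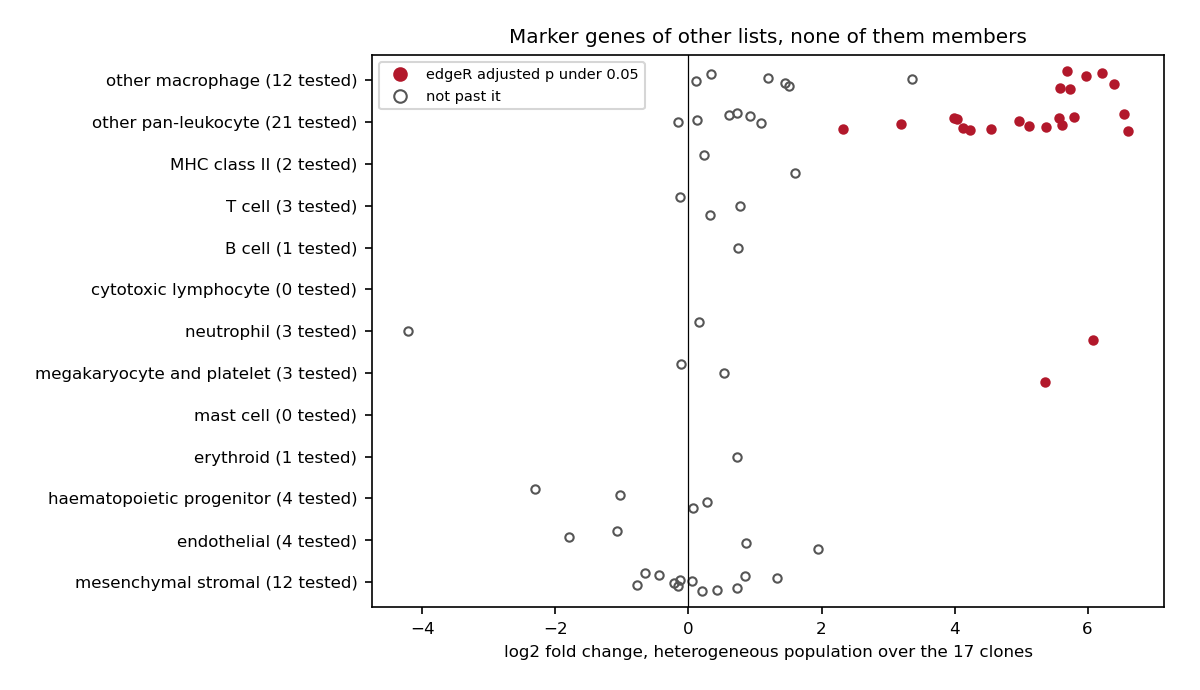
Log2 fold change of the heterogeneous population over the 17 clones by edgeR (x axis) for each tested gene of 13 marker lists (y axis, with the number tested), none of them among the 36 genes; filled points passed an adjusted p of 0.05. The filled points are 6 macrophage, 15 pan-leukocyte, 1 neutrophil and 1 platelet gene, and the mesenchymal genes lie on both sides of 0.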

How the data were processed

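Per the labels and the study's methods, the authors aligned single-end reads of 18 poly(A) libraries to bosTau7 with STAR 2.3.0e and tallied them per RefSeq gene with HTSeq, and the deposited values are raw counts per gene, not normalized. Tally lines that name no gene were left out (18.78% to 26.81% of a file's reads lay outside genes). How reads with several alignments were treated is not given in the sources used here, so counts of near-identical genes (chemokines, MHC) are less certain. The 36 genes, the other lists and the tests were chosen with earlier results of these data known. All 36 symbols matched the RefSeq gene table of ARS-UCD2.0. No sequences or coordinates were used, since that assembly is not the authors' build.

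CPM used the total of reads on genes. edgeR 4.0.16 (TMM, filterByExpr, quasi-likelihood test, Benjamini-Hochberg adjustment over all genes tested, threshold 0.05) compared the heterogeneous population with the clones and each clone with the other 16. For the first comparison a gene could pass the filter in 1 library. The chi-square test needed a mean of 5 reads per clone. Folds against pooled clones have exact conditional binomial intervals. DESeq2 1.42.0, other scalings, filters, class limits and left-out clones were alternatives. Tests were checked on simulated counts. R 4.3.3, Python 3.11.15 and scipy 1.17.1 were used. Genes named outside the list are those past the threshold, at most 8 per list by fold, and those at 0 reads in every library, and a few others were chosen after their values were seen. Some genes that this rule names are not reported here.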

Additional observations from a re-analysis of the deposited data

How the results depend on the processing

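The single heterogeneous library has no replicate, and genes with a few reads are measured poorly. No paired analysis was possible because the heterogeneous population is 1 library and the labels number no replicates. DESeq2's Wald test gave 78 genes higher and 11 lower in the heterogeneous population in place of 144 and 1, with 17 of the 36 genes, 2 further macrophage and 6 pan-leukocyte genes called. A filter blind to the groups, which drops genes with no reads in most clones by its construction, left 5 of the 36 genes and gave 4 genes higher and 0 lower, with 1 of the 36 (CD68) and 0 of either list. Library totals gave 2 genes lower. In the other 5 settings of this comparison the 23 listed genes called by edgeR kept their call, and DESeq2 kept 9 and lost 14 without a change of direction. Between clones, DESeq2 called 366 genes in clone N, 8 in clone M and 67 in the others together, in place of 81, 2 and 0. Clone M had 1 with library totals and 4 with no filter, and the others 1 and 2. A limit of 0.5 CPM gave 15 near-zero and 16 mixed genes, and one of 2 CPM left 2 shared genes (CTSS and TLR4). The count above every clone was 32, and it was 33 with TMM, 34 without clone N and 33 without clones C, G, K and O, settings added after the data were seen.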

Other observations

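Some genes named for blood cells were expressed by the clones at levels that overlapped the heterogeneous population, and all of them were picked after their values were seen. The Fc receptor gene FCGR1A had 102 reads in the heterogeneous population against 10 to 296 in the clones (median 58), with clone N highest. LSP1, an actin-binding protein of leukocytes, had 1145 against 433 to 3269, with clone P highest, as it was for NCF4. The T cell receptor chain gene CD247 had 106 against 50 to 261. The stem cell factor receptor KIT had 4 reads against 0 to 119, with clone O highest. None of these 4 passed an adjusted p of 0.05 by edgeR in the heterogeneous population.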
